A study of Homo sapiens with 4 samples.

Results

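The colony-stimulating factors and the interleukin-6 (IL-6) family were examined in MDA-MB-231 cells, a triple-negative breast cancer line, and in LM2-4175 cells, which were derived from MDA-MB-231 and metastasize to the lung. RNA-Seq had been run on 2 libraries of each line, 4 in all, from untreated cells grown in the same serum-containing medium, and both groups are single cell lines in culture without a host. The members were the 10 genes of the deposited table, out of 57815, that carry the symbols CSF1, CSF2, CSF3, IL6, LIF and IL11 (6 ligands) and IL6R, IL6ST, LIFR and OSMR (4 receptor chains). They had been chosen with the difference between the lines in view, so their levels are given as a description and no test was run on them. The table holds 1 value per gene and line, in FPKM (fragments scaled to transcript length and to the number of fragments mapped), with a lower and an upper bound given by the authors. No value has a replicate check, since the libraries of a line were combined, and the bounds are the only error given here.

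Colony-stimulating factors are secreted proteins that make blood progenitors divide and mature. CSF1 acts on macrophages, CSF2 (also called GM-CSF) on granulocytes and macrophages, and CSF3 (G-CSF) on neutrophils. The IL-6 family signals through IL6ST, the chain known as gp130, which each cytokine joins with a receptor of its own: IL-6 with IL6R, IL-11 with IL11RA, LIF with LIFR and oncostatin M with OSMR or LIFR. The receptors carry JAK kinases that phosphorylate STAT3, and SOCS3 closes the loop as a feedback inhibitor. In breast and other carcinomas many of these cytokines are known as products of inflammatory, NF-kB driven transcription. The mRNAs of several of them are short-lived because of AU-rich elements near their ends.

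Sequences before the start sites and in the 3′ ends are shown first, for 3 of the ligand genes with the largest differences, because both are known sites of control for these genes. The 250 bases before the start site of 3 ligand genes are given 5′ to 3′ on the coding strand, from RefSeq on GRCh38.p14, with matches to the motifs searched in capitals. The IL6 stretch is chr7:22726950-22727199 on the plus strand, the CSF2 stretch chr5:132073539-132073788 on the plus strand and the IL11 stretch chr19:55370464-55370713 on the minus strand.
IL6: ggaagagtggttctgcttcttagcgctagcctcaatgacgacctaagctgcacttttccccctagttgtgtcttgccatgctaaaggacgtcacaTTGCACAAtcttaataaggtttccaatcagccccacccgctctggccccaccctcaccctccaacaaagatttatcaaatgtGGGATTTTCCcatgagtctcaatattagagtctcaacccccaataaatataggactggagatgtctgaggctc
CSF2: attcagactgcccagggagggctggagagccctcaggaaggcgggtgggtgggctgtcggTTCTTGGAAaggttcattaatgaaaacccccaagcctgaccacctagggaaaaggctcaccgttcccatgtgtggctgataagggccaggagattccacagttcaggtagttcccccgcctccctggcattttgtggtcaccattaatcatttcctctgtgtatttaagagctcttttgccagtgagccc
IL11: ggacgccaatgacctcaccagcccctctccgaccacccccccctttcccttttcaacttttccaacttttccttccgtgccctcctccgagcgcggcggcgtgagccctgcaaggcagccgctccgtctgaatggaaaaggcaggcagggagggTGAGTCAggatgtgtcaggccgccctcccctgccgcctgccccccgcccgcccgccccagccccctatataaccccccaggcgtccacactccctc

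Both strands of each promoter entry, which runs from 250 bases before the start site to 50 bases after it, were searched for the NF-kB consensus, for C/EBP (TTGCNNAA), AP-1 (TGANTCA), and STAT (TTCNNNGAA) motifs and for the TATA box with the letters TATAAA, and no matches overlapped in the stretches shown. Of the 10 members, 7 had promoter entries and CSF1, CSF3 and LIF had none. IL6 held 1 NF-kB match at bases -73 to -64 from the start site and 1 C/EBP match at bases -155 to -148. CSF2 held 1 STAT match (bases -190 to -182) and IL11 held 1 AP-1 match (bases -96 to -90). An NF-kB match was found in 11.3% of all 35116 promoter entries, a C/EBP match in 10.5%, an AP-1 match in 7.71% and a STAT match in 7.66%. Among the receptor chains, IL6ST held an NF-kB match, IL6R and OSMR an AP-1 match, and OSMR also a C/EBP match. LIFR had several promoter entries, which between them held a C/EBP match and STAT matches. The letters TATAAA were matched in an entry of LIFR at bases -202 to -197 and -200 to -195, and in 11.5% of all promoter entries. These matches are descriptions of the sequence and not binding sites that were measured. Only exact matches to each pattern were counted, so a site that departs from its pattern would be missed.

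The AU-rich pentamer ATTTA recruits proteins that speed or slow mRNA decay. The stretch of 30 bases with the most pentamers in the 3′ UTR of the same genes is given below from the GRCh37 transcripts, with the pentamers in capitals, at chr7:22771316-22771345 (plus strand) for IL6, chr5:131411765-131411794 (plus strand) for CSF2 and chr19:55877319-55877348 (minus strand) for IL11.
IL6: ttttaattatttttaATTTAttaatATTTA
CSF2: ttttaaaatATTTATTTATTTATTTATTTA
IL11: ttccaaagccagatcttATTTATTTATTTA

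The UTRs of 4 ligands were dense in this pentamer. CSF2 held 8 in 318 bases (25.2 per kb), IL6 held 6 in 425 bases (14.1 per kb), CSF3 held 7 in 854 bases (8.20 per kb) and IL11 held 9 in 1625 bases (5.54 per kb). The median over 11216 protein-coding genes tested was 1.76 per kb, and 93.2% of them lay below IL11, 98.1% below CSF3, 99.6% below IL6 and nearly all of them below CSF2. LIF (2.19 per kb) and CSF1 (1.86 per kb) lay near the median. The receptor chains ran from 1.47 per kb in IL6R to 4.19 per kb in LIFR. Of the genes tested, 85.6% lay below LIFR, 82.6% below IL6ST, 80.3% below OSMR and 44.7% below IL6R, beside 58.0% below LIF. The longer element TTATTTATT, which 9.6% of the genes tested hold, was present in CSF2 (3 copies), IL11 (6 copies), LIF (2 copies), OSMR (2 copies) and LIFR (1 copy).

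**Figure D1:**
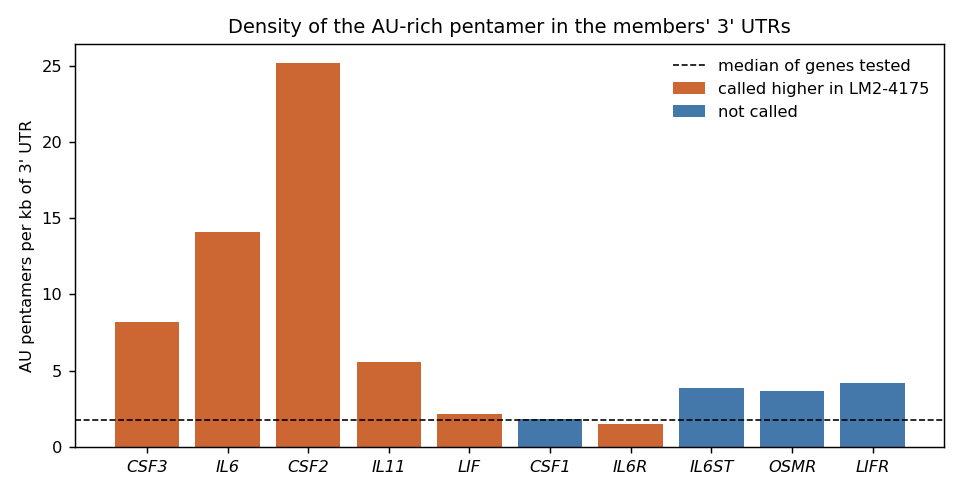
Bars give the number of ATTTA pentamers per kb of 3′ UTR in the canonical transcript of each member, and the dashed line marks the median of the genes tested (1.76 per kb). CSF2 and IL6 stand highest at 25.2 and 14.1 per kb, and LIF, CSF1 and IL6R lie near the line.

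In LM2-4175, 5 of the 6 ligand genes were far above their level in MDA-MB-231, while the bounds of the receptor chains IL6ST and OSMR overlapped between the lines. A change is given as log2 of (FPKM + 1) in LM2-4175 over (FPKM + 1) in MDA-MB-231. The added 1 makes changes of low genes look smaller than they are. Calls in either direction needed a mean of at least 0.5 FPKM, a change of at least 1.5-fold on this scale and bounds in the 2 lines that did not overlap. All 10 members passed the filter, IL6R only through its level in LM2-4175. By this rule 6 members were called higher and 0 lower, against 4.67% of 13911 genes tested called higher and 4.61% called lower. Because the members were chosen on this contrast, nothing is read from that count. The median change of the members was 1.52, beside -0.04 for all genes tested.

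**Figure D2:**
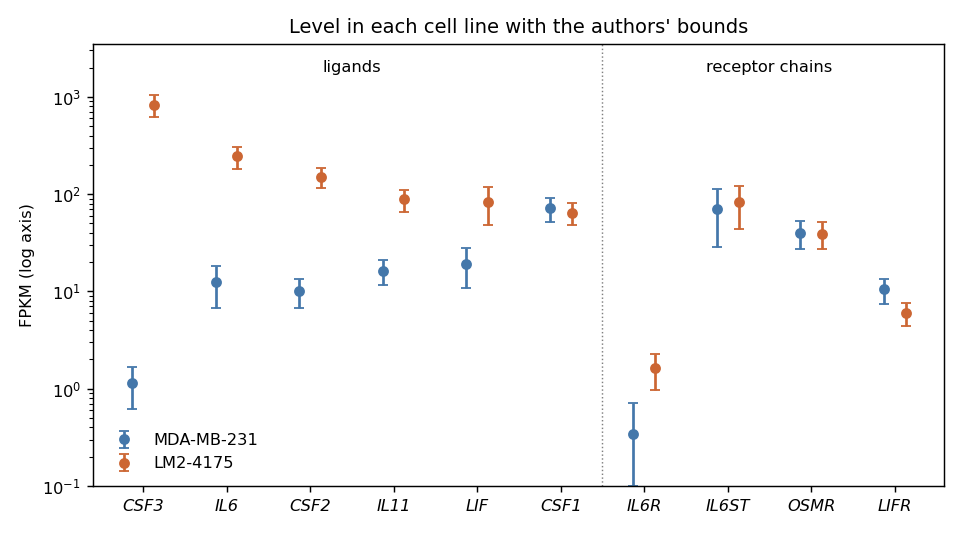
Points give the FPKM of each member in MDA-MB-231 (blue) and LM2-4175 (orange) on a log axis, and bars the authors' lower and upper bounds, with the lower bound of IL6R in MDA-MB-231 (0) running off the axis. CSF3, IL6, CSF2, IL11, LIF and IL6R have bounds that do not overlap, and CSF1, IL6ST, OSMR and LIFR have bounds that do.

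CSF3, which encodes the neutrophil growth factor G-CSF (ENSG00000108342.8, chromosome 17 of GRCh37 in GENCODE 44, as for all positions of members, 38171614 to 38174066, plus strand), stood at 1.15 FPKM (bounds 0.620 and 1.68) in MDA-MB-231 and at 831 FPKM (bounds 627 and 1035) in LM2-4175, with the authors' bounds in parentheses. The ratio was 722, and the nearest bounds were still 373-fold apart. Its log2 fold change of 8.60 ranked 3 of all genes tested, and the gene moved from rank 12299 to rank 97 by level. No exon of another gene overlapped its exons. The error was relatively wider at the low level, where the upper bound lay 46.1% above the FPKM in MDA-MB-231 and 24.5% above it in LM2-4175.

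IL6 (ENSG00000136244.7, chromosome 7, 22765503 to 22771621, plus strand) encodes the founding cytokine of its family. It had 12.5 FPKM (bounds 6.78 and 18.3) in MDA-MB-231 and 245 FPKM (bounds 182 and 308) in LM2-4175. The ratio was 19.5, with 9.96 between the nearest bounds, and the log2 fold change was 4.18. IL6 ranked 20 of the genes tested by this change. Exons of IL6-AS1 and STEAP1B on the opposite strand covered 9.9% of its exon bases, and the library kit named does not mark strand, so reads of the 2 strands cannot be told apart there or in the overlaps given below.

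CSF2 (ENSG00000164400.4, chromosome 5, 131409482 to 131411863, plus strand), the gene for GM-CSF, had 10.1 FPKM (bounds 6.76 and 13.5) in MDA-MB-231 and 151 FPKM (bounds 115 and 187) in LM2-4175. The nearest bounds were 8.55-fold apart around a ratio of 14.9, and the log2 fold change was 3.78 (rank 33). Its exons shared no bases with another gene. Its UTR, shown above, is the densest in AU-rich pentamers among the members.

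IL11 (ENSG00000095752.2, chromosome 19, 55875750 to 55881831, minus strand) encodes a cytokine of stromal and bone cells that uses gp130. Its level was 16.2 FPKM (bounds 11.6 and 20.8) in MDA-MB-231 and 88.6 FPKM (bounds 66.2 and 111) in LM2-4175. The log2 fold change was 2.38 and the levels differed 5.47-fold. LIF (ENSG00000128342.4, chromosome 22, 30636442 to 30642748, minus strand), the leukaemia inhibitory factor that keeps stem cells undifferentiated, had 19.3 FPKM (bounds 10.8 and 27.7) and 83.5 FPKM (bounds 48.3 and 119), which is 4.34-fold or 2.06 on the log2 scale. Neither pair of bounds overlapped, and those of LIF came closest among the called ligands, with 1.74-fold between them. LIF-AS1 and LIF-AS2 on the opposite strand covered 4.4% of the exon bases of LIF.

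CSF1 (ENSG00000184371.9, chromosome 1, 110452864 to 110473614, plus strand), the macrophage growth factor, did not follow the other ligands. It had 71.2 FPKM (bounds 51.7 and 90.8) in MDA-MB-231 and 64.7 FPKM (bounds 48.0 and 81.5) in LM2-4175. The bounds overlapped over most of their length, and the ratio of 0.909 could lie anywhere from 0.529 to 1.58 within them. The log2 fold change was -0.14.

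The order of the ligands was therefore not the same in the 2 lines. In MDA-MB-231, CSF1 stood highest, with no overlap with LIF, and LIF, IL11, IL6 and CSF2 followed in that order with bounds that overlapped from each to the next. CSF3 came last, below CSF2 with no overlap. In LM2-4175, CSF3 led with no overlap with IL6, IL6 overlapped CSF2, CSF2 lay above IL11 with no overlap, and IL11, LIF and CSF1 overlapped from each to the next. CSF1 made up 54.6% of the summed FPKM of the 6 ligands in MDA-MB-231 and 4.42% in LM2-4175, where CSF3 made up 56.8%. The sum itself was 130.5 FPKM in MDA-MB-231 and 1464 FPKM in LM2-4175, a ratio of 11.2.

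Among the receptor chains, the summed level was 121 FPKM in MDA-MB-231 and 129.7 FPKM in LM2-4175, a ratio of 1.07. IL6ST (ENSG00000134352.15, chromosome 5, 55230923 to 55290850, minus strand), the signalling chain that all the IL-6 family ligands here share, had 70.6 FPKM (bounds 28.7 and 113) in MDA-MB-231 and 82.8 FPKM (bounds 43.6 and 122) in LM2-4175. Its bounds overlapped over most of their length. A lncRNA gene on the opposite strand covered 6.6% of its exon bases.

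OSMR (ENSG00000145623.8, chromosome 5, 38845960 to 38945698, plus strand), the oncostatin M receptor, was nearly level, at 40.1 FPKM (bounds 27.3 and 52.8) in MDA-MB-231 and 39.3 FPKM (bounds 27.3 and 51.2) in LM2-4175. The bounds allow a ratio from 0.517 to 1.88. Exons of the protein-coding gene RICTOR on the opposite strand covered 3.2% of its exon bases. LIFR (ENSG00000113594.5, chromosome 5, 38474770 to 38608456, minus strand), the LIF receptor, had 10.5 FPKM (bounds 7.50 and 13.4) in MDA-MB-231 and 6.04 FPKM (bounds 4.45 and 7.64) in LM2-4175. Its log2 fold change of -0.70 was past the 1.5-fold minimum, but the upper bound in LM2-4175 lay just above the lower bound in MDA-MB-231, so LIFR was not called. By the fold alone, LIFR was the 1 member lower, beside 11.8% of genes tested, and 6 members were higher, beside 10.3% (22.1% in either direction). LIFR was the member closest to a call among those without one. LIFR-AS1 on the opposite strand covered 5.2% of its exon bases.

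IL6R (ENSG00000160712.8, chromosome 1, 154377669 to 154441926, plus strand), the chain that binds IL-6 before gp130, had the lowest value of the members in both lines, although in MDA-MB-231 its bounds overlapped those of CSF3. It had 0.340 FPKM (bounds 0 and 0.712) in MDA-MB-231 and 1.63 FPKM (bounds 0.961 and 2.29) in LM2-4175. The bounds did not overlap and the ratio was 4.79, but the nearest bounds were only 1.35-fold apart and the log2 fold change was 0.97. IL6R was called higher as the member just inside the limits, and it was not called with a minimum of 2-fold. Even in LM2-4175 its level was far below that of IL6ST, with no overlap of bounds.

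**Figure D3:**
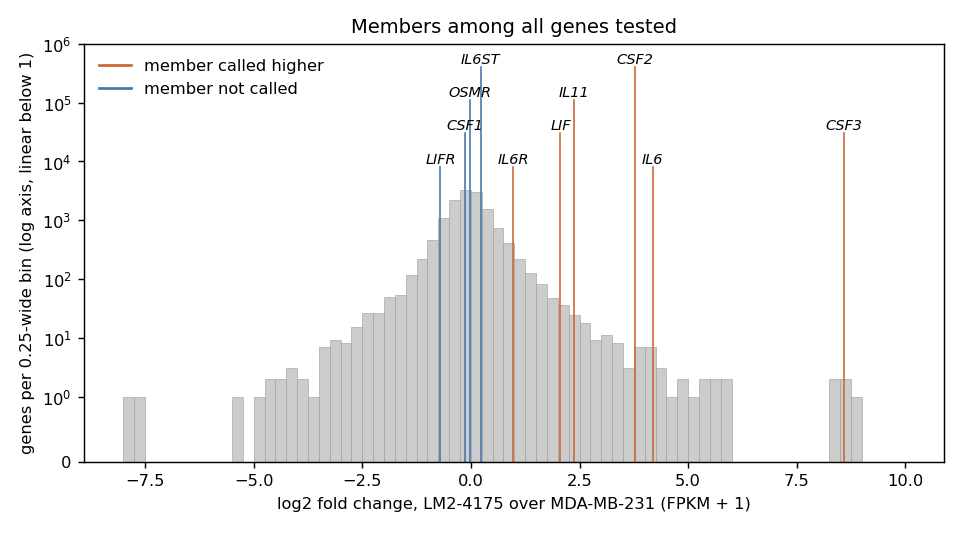
Grey bars count the 13911 genes tested per bin of log2 fold change (horizontal axis, LM2-4175 over MDA-MB-231), on an axis that is logarithmic above 1 gene, and vertical lines mark the 10 members (line height has no meaning). CSF3 lies at 8.60 among the last few genes, IL6 and CSF2 lie in the thin right tail at 4.18 and 3.78, and LIFR, CSF1, OSMR and IL6ST lie in the bulk.

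The receptors for the colony-stimulating factors were at low levels or listed at 0. CSF1R, the CSF1 receptor, had 2.92 FPKM (bounds 1.23 and 4.60) in MDA-MB-231 and 0.790 FPKM (bounds 0.176 and 1.40) in LM2-4175, with overlapping bounds. CSF2RB, the signalling chain for GM-CSF, had 0.0999 FPKM and 0.0244 FPKM, under the filter. CSF3R, the G-CSF receptor, was listed at 0 in both lines, as was CSF2RA, the binding chain for GM-CSF. The 0 of CSF2RA says nothing about the gene, because it lies in the region shared by the X and Y chromosomes, and CD99 and SLC25A6, well-expressed genes of that region in most cells, were also listed at 0 for both copies. An exact 0 can be a failed estimate elsewhere too. IL11RA, the IL-11 receptor, had 2.22 FPKM (bounds 0.391 and 4.05) in MDA-MB-231 and 4.62 FPKM (bounds 1.61 and 7.64) in LM2-4175, and these bounds overlapped.

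Of the other receptor chains of the family, 4 of 10 were tested, 0 were called and 3 were listed at 0 in both lines. These 3 were CSF3R, CSF2RA and IL3RA. IL3RA lies in the same region of the X and Y chromosomes as CSF2RA, so its 0 says nothing about the gene either. Of 11 other ligands, 5 were tested and 1 was called. This was EBI3, a subunit of IL-27 and IL-35, which rose from 2.61 FPKM (bounds 1.58 and 3.65) to 9.29 FPKM (bounds 6.50 and 12.1), a log2 fold change of 1.51. OSM, the ligand of OSMR, was close to 0, with 0.00311 FPKM in MDA-MB-231 and 0.0526 FPKM in LM2-4175.

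Genes around the family were grouped by role in 7 lists, which hold 80 genes tested when each is counted once. Of these, 13 were called higher and 8 lower (26.2%, against 9.27% of all genes tested in either direction). The lists were written with earlier results of these data known, so the share is not independent evidence.

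The JAK-STAT machinery showed no called change. Of 15 JAK, STAT, adaptor and feedback genes tested, 0 were called, with a median log2 fold change of -0.16 beside -0.04 for all genes tested. STAT3 had 50.5 FPKM (bounds 34.8 and 66.2) in MDA-MB-231 and 46.3 FPKM (bounds 32.7 and 59.8) in LM2-4175, and its feedback gene SOCS3 had 27.7 FPKM (bounds 21.3 and 34.1) and 21.0 FPKM (bounds 16.1 and 25.9). Both pairs of bounds overlapped.

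Of the proteases that shed receptors such as IL6R from the cell surface, ADAM10 fell from 79.4 FPKM (bounds 57.9 and 101) to 37.7 FPKM (bounds 27.4 and 48.0), a log2 fold change of -1.06. ADAM17 had 15.0 FPKM (bounds 10.4 and 19.7) and 15.6 FPKM (bounds 11.4 and 19.8), with bounds that overlapped.

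Genes that STAT3 is known to induce did not move as 1 group. Of 19 tested, 4 were called higher and 3 lower, with a median log2 fold change of 0.10. VEGFA, the angiogenic growth factor, rose from 37.1 FPKM (bounds 24.3 and 49.8) to 243 FPKM (bounds 153 and 333). LCN2, an iron-sequestering lipocalin, rose from 1.03 to 5.03 FPKM (log2 fold change 1.57). SAA1 and SAA2, acute phase proteins, rose by 1.45 and 1.12 on the log2 scale, but the 2 genes are close copies between which reads may be split. PIM1, a survival kinase, fell from 36.7 FPKM (bounds 25.0 and 48.3) to 17.4 FPKM (bounds 11.5 and 23.4).

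Of the lists, that of inducers and transcription factors of cytokine genes held the largest changes. Of 24 tested, 5 were called higher and 2 lower, with a median log2 fold change of 0.25. IL1B, the inflammatory cytokine that induces CSF3 and IL6 in many cells, had 1.43 FPKM (bounds 0.807 and 2.04) in MDA-MB-231 and 819 FPKM (bounds 618 and 1020) in LM2-4175. IL1A, which binds the same receptor, rose from 0.219 FPKM (bounds 0.0833 and 0.356) to 27.9 FPKM (bounds 21.2 and 34.5). That receptor, IL1R1, fell from 6.95 FPKM (bounds 4.58 and 9.32) to 3.06 FPKM (bounds 1.91 and 4.20).

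CEBPB, the C/EBP factor first named for binding the IL6 promoter, rose from 5.45 FPKM (bounds 3.86 and 7.03) to 22.8 FPKM (bounds 17.3 and 28.3), a log2 fold change of 1.88. FOS, an AP-1 subunit, fell from 17.6 FPKM (bounds 12.6 and 22.7) to 2.99 FPKM (bounds 1.84 and 4.14), a log2 fold change of -2.23. JUN, another AP-1 subunit, rose from 26.8 FPKM (bounds 20.7 and 32.9) to 42.6 FPKM (bounds 33.0 and 52.2), with bounds only just apart. Among the NF-kB subunit genes NFKB1, NFKB2, REL, RELA and RELB none was called. NFKB2, with 23.0 FPKM (bounds 15.5 and 30.6) and 39.7 FPKM (bounds 27.3 and 52.0), was past the 1.5-fold minimum, but its bounds overlapped. Its log2 fold change was 0.76, beside 0.50 for NFKB1, 0.36 for REL, 0.27 for RELB and -0.19 for RELA.

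Regulators of cytokine mRNA decay were called in both directions, 3 higher and 2 lower of 14 tested (median log2 fold change -0.06). ZC3H12A, the endonuclease Regnase-1 that cleaves IL6 mRNA, rose from 3.99 FPKM (bounds 2.65 and 5.34) to 24.4 FPKM (bounds 17.5 and 31.3), a log2 fold change of 2.35. Its relative ZC3H12C rose by 0.76 on the log2 scale. In the family of tristetraprolin, which binds AU-rich elements and promotes decay, ZFP36 itself fell from 15.7 FPKM (bounds 11.6 and 19.9) to 8.99 FPKM (bounds 6.51 and 11.5). The call for ZFP36 was lost when FPKM were scaled to TPM and when the median change was set to 0. ZFP36L2 fell from 16.4 FPKM (bounds 11.1 and 21.7) to 6.35 FPKM (bounds 3.89 and 8.81), whereas ZFP36L1 rose from 64.0 FPKM (bounds 48.8 and 79.3) to 119 FPKM (bounds 91.3 and 147).

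**Figure D4:**
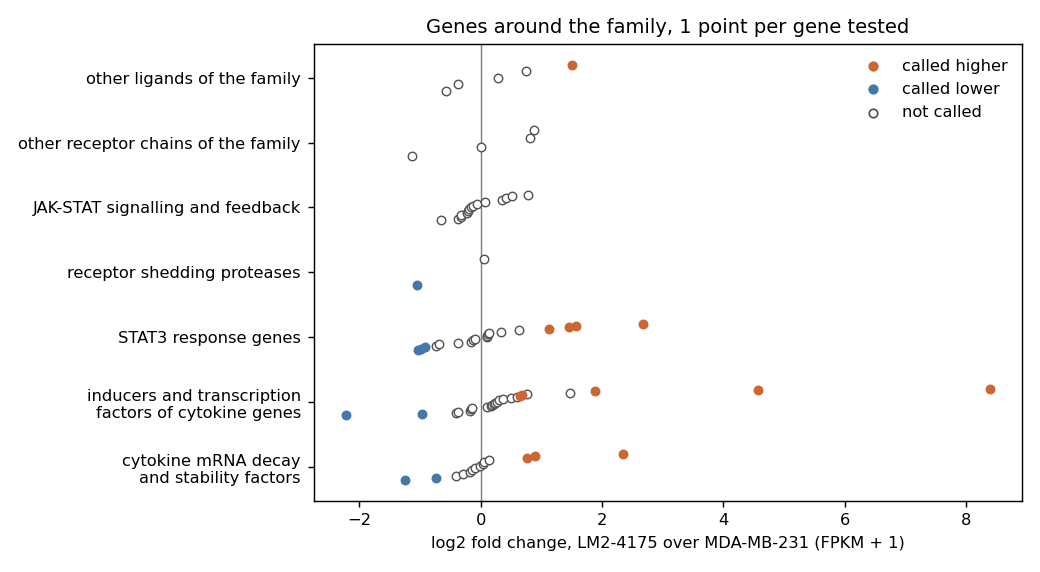
Each point is a gene tested, placed by its log2 fold change between the lines, in rows by list, with filled points for genes called higher (orange) or lower (blue) and open points for genes not called. The rows of JAK-STAT genes and other receptor chains hold open points only, and IL1B (8.40) and IL1A (4.57) lie far to the right in the row of inducers.

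Genes beside the members on the chromosome were listed by the position of their annotated start. Within 1 Mb of the start of CSF3, 30 other protein-coding genes were tested, 0 were called higher and 1 lower, TNS4, which encodes a tensin (13.5 to 1.55 FPKM). Their median log2 fold change was 0.01. Around CSF2, 0 of 18 genes were called, and the median was -0.08.

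Of the 218 different neighbours of all members, 120 were higher in LM2-4175 by some amount. Their log2 fold changes had a median of 0.02, beside -0.04 over all genes tested, most of which were therefore lower in LM2-4175. Whether neighbours and other genes differ in this was not tested. Around IL6 all 11 genes tested were higher by some amount, and their log2 fold changes had a median of 0.50 and a highest value of 1.01. That highest value belonged to GPNMB, a transmembrane glycoprotein gene and the 1 neighbour called (0.832 to 2.69 FPKM), so IL6 exceeded each of its neighbours. Around IL11, 3 of 34 genes were called higher, with RFPL4A (1.45) and its close copy RFPL4AL1 (0.76) changing most, and the median was -0.11. Around LIF, 1 of 33 was called higher (INPP5J, 0.81) and 2 lower (GAS2L1 with -0.85 changed most), and the median was 0.10. Around IL6R, 50 genes had a median of 0.00, with RAB13 called higher (1.16) and S100A4 called lower (-2.72). In all, 13 of 218 different neighbours of the members were called (5.96%, against 9.27% of all genes tested).

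**Figure D5:**
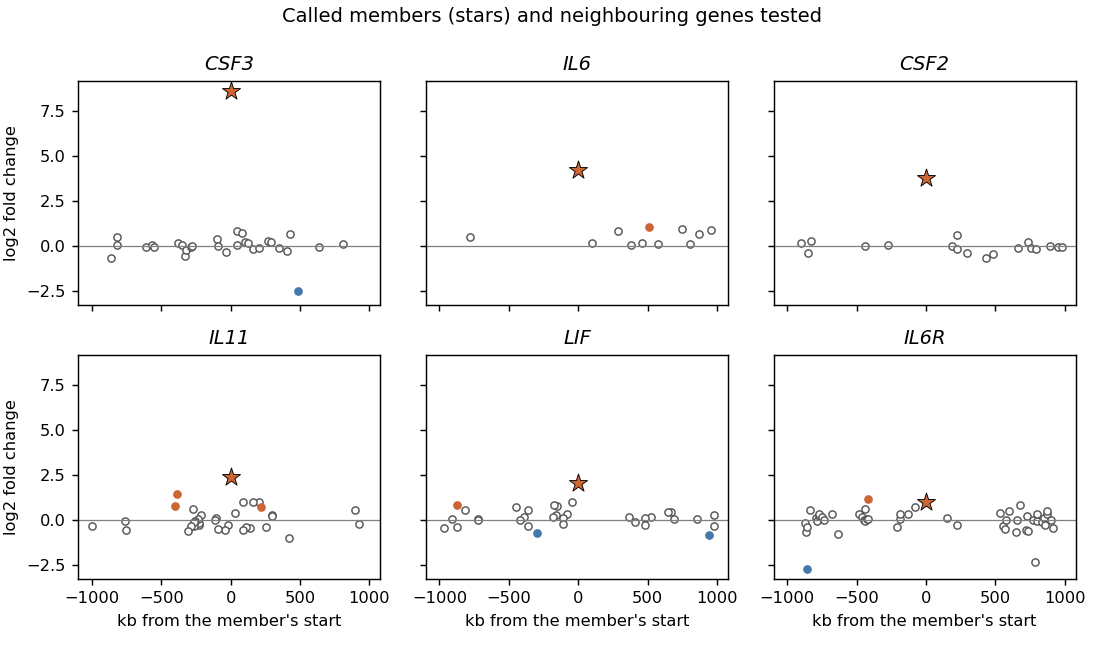
Each panel plots the log2 fold change of protein-coding genes tested against the distance of their start from that of a called member (star), in kb along the member's strand, with orange points called higher, blue points called lower and open points not called. The stars of CSF3, IL6, CSF2, IL11 and LIF stand above all their neighbours, and RAB13 lies above IL6R.

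The genes most like each called member in the pair of levels were found as those with the smallest distance over log2(FPKM + 1) in the 2 lines, which rests on only 2 values per gene. For CSF3, IL1B was nearest at a distance of 0.17, and the next, IL8 (2.40) and LCP1 (2.76), were far away, so IL1B was alone in having almost the same levels as CSF3. For IL6, SPARC came first (0.14, with 13.6 FPKM in MDA-MB-231 and 232 FPKM in LM2-4175), then C15orf48 (0.76) and STC1 (0.77). For CSF2, STC1 (0.68), C3 (0.69) and SPARC (0.73) were nearest, none of them closely. LIF lay beside DUSP5 (0.03), SLC37A2 (0.24) and TMEM132A (0.30), and the same genes were nearest to IL11, at 0.23, 0.44 and 0.28. For IL6R the nearest were NPL (0.02), MED12L (0.02) and NFATC4 (0.04), in the crowded range of low levels.

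The identity of the lines was checked against markers. VIM (1355 and 1768 FPKM) and CD44 (469.7 and 355 FPKM) were high in MDA-MB-231 and LM2-4175, ESR1 had at most 0.0331 FPKM and PGR at most 0.0124 FPKM, and ERBB2 had 35.0 and 22.8 FPKM. KRT8 and KRT18, keratins of luminal epithelium, were high but called lower in LM2-4175, by log2 fold changes of -1.79 and -1.30. Leukocytes and endothelial cells also make these cytokines, and their markers were at or near 0 apart from CD14 and KDR. The summed level of 7 leukocyte markers was 1.54 FPKM in MDA-MB-231 and 1.92 FPKM in LM2-4175, of which CD14 gave 1.17 and 1.75 FPKM, CD3E was listed at 0, and PTPRC was at most 0.0767 FPKM. Of 5 endothelial markers, 4 were in the table and summed to 1.07 and 2.66 FPKM, almost all of it from KDR, which was called higher (0.971 to 2.48 FPKM), while CDH5 had at most 0.0857 FPKM and VWF at most 0.0618 FPKM. What part, if any, such cells have in the levels of the members was not tested.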

How the data were processed

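Total RNA of 4 libraries, 2 per cell line, was sequenced as paired reads, which the authors aligned to hg19 with TopHat2 and quantified with Cufflinks and Cuffdiff on GENCODE v19 genes. The deposited values are FPKM with bounds and a status, 1 set per cell line. The kit named, TruSeq v2, and TopHat2 at default settings do not use strand. How libraries were normalized and what the bounds cover are not given in the sources used here, and the table holds no counts, so depth per value is unknown.

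A test per library could not be run, and no gene was tested statistically here. "Tested" genes are those with status OK in both lines and a mean of at least 0.5 FPKM. Calls are defined in the report (1.5-fold on FPKM + 1, bounds apart). The 1.5-fold minimum is that of the study, which used it together with a q-value limit from Cuffdiff. The study's own calls and q-values were not used here, so its gene counts do not correspond to those given. Of the planned leukocyte markers, 1 is not reported here. Members and gene lists were chosen with earlier results of these data known. Named were all members, up to 5 called genes per list by size of change, fixed receptors and OSM, the 3 nearest genes and up to 2 called neighbours per member. STAT3, SOCS3, ADAM17, JUN, the NF-kB subunits, NFKBIZ, IL3RA, CD99 and SLC25A6 were named after their values were seen. Because the table's locus intervals merge overlapping genes, gene positions, like gene types, exon overlaps and 3′ UTRs, came from GENCODE 44 on GRCh37, which matched 55535 genes by ID, and promoters from RefSeq. Python 3.11.15, NumPy 2.4.6, pandas 2.3.3 and Matplotlib 3.10.9 were used.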

Additional observations from a re-analysis of the deposited data

How the results depend on the processing

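The 6 members called higher stayed 6 with a pseudocount of 0.1, without the filter, after scaling to TPM, after setting the median change to 0, by the fold alone and by the bounds alone (chosen after seeing the data). They were 5 at a mean of at least 1 FPKM, where IL6R was not tested, and 5 with a minimum of 2-fold, where IL6R was not called. Members called lower went from 0 to 1 by the fold alone, through LIFR. The median change of the members, 1.52, was 2.04 with a pseudocount of 0.1 and 2.06 at a mean of at least 1 FPKM. Pathway genes called, 21, became 33 by the fold alone and 13 with a minimum of 2-fold, and neighbours called, 13, became 46 and 6, alternatives applied to these lists after seeing the data. By the alternatives' own construction, these counts follow from dropping the bounds or raising the fold. No called member or called pathway gene changed direction under these alternatives. No paired analysis was possible because the table has 1 column per cell line, and for the same reason no library could be left out. The lower bound of IL6R in MDA-MB-231 is 0, which limits what can be said of low receptors.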

Other observations

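Around the members that were not called, neighbours within 1 Mb were counted beside a share of 9.27% called among all genes tested. Of 28 genes tested near CSF1, SYPL2, a synaptophysin-like gene, was called higher (0.364 to 1.83 FPKM, log2 fold change 1.05) and GSTM4, a glutathione transferase gene, was called lower (30.5 to 17.0 FPKM, log2 fold change -0.80). Of 12 near IL6ST, ESM1, which encodes endocan, was called higher (0.165 to 1.11 FPKM). OSMR and LIFR lie within 1 Mb of each other, each had 3 tested neighbours including the other, and 0 were called.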
